A study of Mus musculus with 10 samples.

Results

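The 10 livers of the series were ranked by how much macrophage RNA they held, and the 3 livers at the top, called high-score livers here, were described against the other 7, called low-score livers. The ranking used a macrophage score, the mean of the z-scores over the 10 livers of the log2 levels of 7 transcripts of macrophages: C1qa, C1qb, C1qc, Cd68, Ctss, Tyrobp and Csf1r. Log2 was taken of the values in the authors' deposited table of the whole series. The high-score livers were mulberry 1, mulberry 5 and control 2. The low-score livers were mulberry 2, 3 and 4 and control 1, 3, 4 and 5. Mulberry mice were male C57BL/6NCrSlc mice, an inbred strain, that received a diet rich in cholesterol and drank mulberry leaf extract for 4 weeks (n = 5). Control mice were male mice of the same strain on the same diet without the extract (n = 5). Their age was not given in the sources used here, and all 10 mice shared the cholesterol-rich diet, so no liver on ordinary chow stands beside them. Because the sides were chosen on measured transcripts and cut across the diets, they are not groups of the study, and every difference between them is given as a description with no test.

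The liver holds resident macrophages, the Kupffer cells, in its sinusoids, and it takes up monocytes from the blood that can mature into further macrophages. C1qa, C1qb and C1qc encode the chains of complement C1q, Ctss a lysosomal protease that trims antigens, Tyrobp an adaptor of activating receptors, Csf1r the receptor for the growth factor on which macrophages depend, and Cd68 a glycoprotein of their lysosomes. Cholesterol-rich diets are known in mice to be able to bring leukocytes into the liver. In RNA from a whole piece of liver, more cells of a type and more RNA per cell cannot be told apart.

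The control columns of the authors' table carried numbers other than those of the scanner files. After each gene was centred, over 11804 genes, each of the 5 mulberry columns correlated best with the scanner array of its own label. Each of the 5 control columns correlated best with the array of another control. Over the 10 columns the best match had r from 0.948 to 0.986. The 5 mismatched columns had r from -0.502 to -0.044 with the array of their own label. Livers are numbered here as in the scanner files, so the liver called control 2 is control 3 in the authors' table. All the mismatches lay among controls, so no liver changed its diet group. If control 3 of the scanner files is taken as the third high-score liver on the strength of the label, 24 genes are higher and 13 lower by the rule given below, in place of 1130 and 87. The remaining values are levels from the scanner files, given as log2 of the processed signal minus the 75th percentile of its array. Probes well above background made up 58.3% to 61.3% of a high-score array and 54.4% to 62.4% of a low-score array. The 75th percentile of the signal was 208.9 to 265.3 on the high-score arrays, against 147.1 to 241.2 on the low-score arrays. Across genes, levels of any 2 arrays correlated with r from 0.936 to 0.992, and mulberry 1 correlated more with mulberry 5 (0.987) than with any low-score liver (0.936 to 0.967). Control 2 correlated with mulberry 1 at 0.973 and with mulberry 5 at 0.983, within or below its 0.974 to 0.987 with the low-score livers.

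The macrophage score was 1.73 in mulberry 1, 1.64 in mulberry 5 and 0.52 in control 2, against -0.93 (lowest), -0.76 (median) and -0.08 (highest) in the low-score livers. Control 2 was the liver just inside the high-score side, and control 4, at -0.08, the one just outside it. The step from control 2 up to mulberry 5 was larger than the step down to control 4, so control 2 stood between the 2 mulberry livers and the rest. Recomputed from the scanner files with the 6 of the 7 transcripts that carried a named probe there (all but Cd68), the score put the same 3 livers on top. In the authors' table, Cd68 had log2 levels of 10.62, 10.67 and 9.65 in mulberry 1, mulberry 5 and control 2. The highest of the low-score livers was at 8.75. In the scanner files, Ctss was at 7.37, 7.75 and 6.14 in mulberry 1, mulberry 5 and control 2, against 4.32, 4.62 and 5.37 (lowest, median, highest) in the low-score livers. C1qa was at 5.03, 5.13 and 3.92 in the high-score livers, against 2.79, 2.93 and 3.80 in the low-score livers. These values chose the livers and describe how far apart the sides are.

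**Figure D1:**
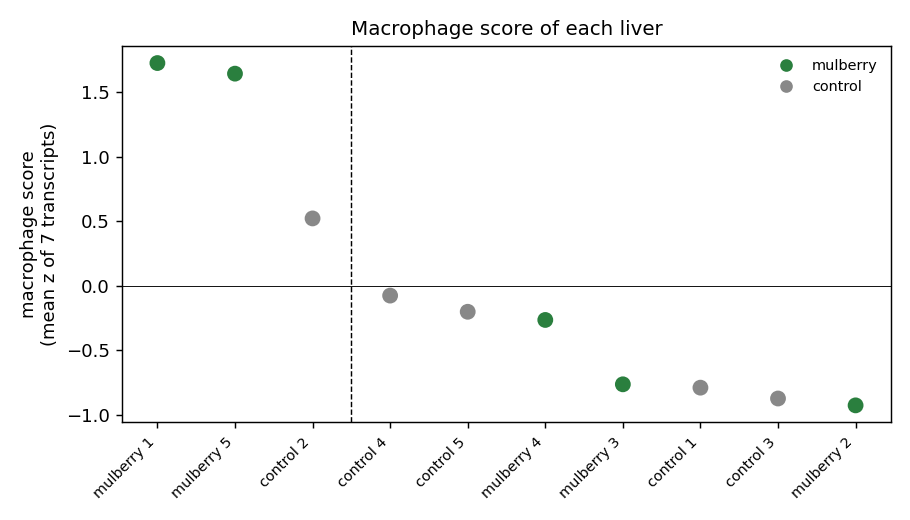
Macrophage score (mean z-score of 7 transcripts, no unit) of each of the 10 livers, in order of the score; green points are mulberry livers, grey points controls, and the dashed line separates the high-score livers on the left from the low-score livers on the right. Mulberry 1 and 5 lie at 1.73 and 1.64, control 2 at 0.52, and all other livers at -0.08 or below.

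Genes known from leukocytes led the contrast, and few genes were lower by as much. Of 19295 genes that were well above background on at least 3 of the 10 arrays, 1540 (7.98%) were higher in each of the high-score livers than in any low-score liver, and 1732 (8.98%) were lower in each. With a mean difference of at least 1 on the log2 scale added to the absence of overlap, the rule used for "higher" and "lower" calls from here on, 1130 genes (5.86%) were higher and 87 (0.451%) lower. The choice of the livers by macrophage transcripts shaped these counts, and nothing is read from them. The shares of 5.86% and 0.451% are the ones to set beside each count of list members called below. The higher genes had a median difference of 1.85, and 465 of them differed by at least 2 and 22 by at least 4. The median difference over all genes was -0.17, so a gene with no relative change lies slightly below 0 on this scale. The filter passed 96 genes that were well above background in none of the low-score livers, which had to lie higher in the high-score livers, and 79 of these are among the 1130. It likewise passed 129 genes that were well above background in none of the high-score livers.

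The gene with the largest difference was Clec4e, which encodes Mincle, a receptor of myeloid cells for mycobacterial glycolipid and for products of dying cells. It was at 4.39, 3.56 and 0.76 in mulberry 1, mulberry 5 and control 2, against -5.20, -4.25 and -0.49 (lowest, median, highest) in the low-score livers, a mean difference of 6.30 or 78.7-fold. Clec4d, whose product pairs with Mincle, was at 2.93, 2.65 and -0.52 in mulberry 1, mulberry 5 and control 2, against -3.70, -3.35 and -1.83 in the low-score livers, a difference of 4.67. Control 4 was the highest low-score liver for both genes. Cst7 encodes cystatin F, an inhibitor of lysosomal proteases in leukocytes, and was at 1.69, 2.23 and -1.14 in mulberry 1, mulberry 5 and control 2, against -6.36, -4.89 and -2.75 in the low-score livers. Ccl8, a chemokine for monocytes, was at 1.80, 2.45 and -0.79 in the high-score livers, against -4.88, -4.61 and -2.96 in the low-score livers, 43.5-fold in the mean. The remaining genes named at the top were Ly6f (difference 6.09), Bst1 (5.51), Ubd (4.80), Chil3 (4.79), Clec5a (4.78), Ccl5 (4.77), Acod1 (4.72), Chil4 (4.58), Fpr2 (4.49), Ly6c1 (4.31), Il18r1 (4.16), Cxcl9 (4.13), Ifng (4.02), Emb (4.01), Slamf8 (3.90) and F13a1 (3.90). Acod1 makes itaconate in activated macrophages, Fpr2 senses formyl peptides, Chil3 and Chil4 encode chitinase-like proteins of alternatively activated macrophages, and Ubd encodes a ubiquitin-like protein induced by interferon gamma and TNF. Chil3 and Chil4, like Ly6c1 and Ly6c2, are close relatives whose probes may cross-hybridise, and 2 of the 3 probes of Clec5a ran in the direction given. Dpep2, a dipeptidase of leukocytes, was not well above background in any low-score liver and was at least 6.06-fold higher in the high-score livers. Of the low-score arrays, 1 was well above background for Ly6f and Bst1, 2 for Cst7, Il18r1 and F13a1, 3 for Ccl8, 4 for Clec5a, Chil4 and Ifng, 5 for Clec4e and all 7 for the rest. In each of these genes control 2 was the lowest of the high-score livers.

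The promoters of Clec4e, Clec4d, Ctss and Cybb (a subunit of the phagocyte oxidase described below) are shown because each holds the letters GAGGAA, the core that the myeloid factor PU.1 binds. The windows run from 250 bases before to 50 after the annotated start, 5′ to 3′ on the gene's strand, from RefSeq in build GRCm38.p6. They lie at chr6:123289822-123290121 (minus strand, Clec4e), chr6:123261857-123262156 (plus strand, Clec4d), chr3:95526536-95526835 (plus strand, Ctss) and chrX:9469275-9469574 (minus strand, Cybb). Capitals mark the motif on either strand.
Clec4e: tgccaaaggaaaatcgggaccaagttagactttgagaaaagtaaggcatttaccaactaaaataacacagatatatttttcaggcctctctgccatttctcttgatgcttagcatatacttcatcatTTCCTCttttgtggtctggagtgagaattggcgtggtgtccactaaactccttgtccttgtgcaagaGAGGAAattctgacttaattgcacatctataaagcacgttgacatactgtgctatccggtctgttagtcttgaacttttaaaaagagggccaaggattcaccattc
Clec4d: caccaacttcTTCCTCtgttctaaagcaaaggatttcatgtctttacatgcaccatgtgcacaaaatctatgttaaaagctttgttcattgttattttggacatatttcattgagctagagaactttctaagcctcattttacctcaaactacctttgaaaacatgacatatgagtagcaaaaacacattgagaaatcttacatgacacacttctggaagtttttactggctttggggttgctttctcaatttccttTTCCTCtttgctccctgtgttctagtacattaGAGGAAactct
Ctss: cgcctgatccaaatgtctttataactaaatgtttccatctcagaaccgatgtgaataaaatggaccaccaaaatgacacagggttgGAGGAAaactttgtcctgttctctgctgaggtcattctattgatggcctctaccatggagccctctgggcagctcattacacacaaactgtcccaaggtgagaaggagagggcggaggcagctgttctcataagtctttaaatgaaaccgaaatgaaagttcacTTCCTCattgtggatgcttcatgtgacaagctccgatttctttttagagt
Cybb: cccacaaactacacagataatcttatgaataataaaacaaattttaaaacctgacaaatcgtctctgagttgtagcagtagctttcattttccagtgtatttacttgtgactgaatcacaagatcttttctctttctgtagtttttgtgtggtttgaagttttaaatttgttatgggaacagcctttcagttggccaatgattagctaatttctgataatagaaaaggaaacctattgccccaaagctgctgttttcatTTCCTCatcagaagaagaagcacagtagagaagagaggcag
Of the 1130 higher genes, 716 had a window in the reference table, and 289 of these (40.4%) held GAGGAA or its reverse complement. Of the 10402 tested genes with a window, 3162 (30.4%) did, and 28.3% of all 32851 windows did. Of 37 genes of the 3 hepatocyte lists with a window, 24.3% held GAGGAA. Of 32 lower genes with a window, 9 (28.1%) did. The 1130 higher genes were chosen through the score. They include transcripts of the score, Ctss among them, and the 79 genes well above background in none of the low-score livers. Nothing is therefore read from their share. A gene with several windows counted once if any held the motif, and a match describes letters in a window and not binding. Genes without a window in the table were left out of these shares.

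Genes of monocytes and macrophages outside the score were higher as well. Of 26 genes listed as macrophage and monocyte genes, none of which was in the score, 24 passed the filter, 1 of them (Itgam) through the high-score livers alone. All of the other 23 had a positive difference, and 18 were higher by the rule, with a median difference of 2.45. Lyz2, the lysozyme of myeloid cells, was at 3.53, 3.60 and 1.35 in mulberry 1, mulberry 5 and control 2, against -1.26, -0.68 and 0.24 in the low-score livers, a mean difference of 3.34. Ccr2, the receptor that brings monocytes out of the bone marrow, was at 0.26, -0.16 and -1.46 in the high-score livers, against -4.44, -3.67 and -2.79 in the low-score livers. Ly6c2, a surface protein of inflammatory monocytes, differed by 3.16 and Ms4a7 by 2.98. Itgam, the alpha chain of the integrin Mac-1, was not well above background in any low-score liver and was at least 4.13-fold higher in the high-score livers. Adgre1, which encodes the F4/80 antigen of mouse macrophages, was at 5.53, 4.81 and 4.00 in the high-score livers, against 2.35, 2.70 and 3.63 in the low-score livers, and Ptprc, the CD45 antigen of all leukocytes, differed by 2.45. The lowest high-score liver stood above the highest low-score liver in each of these genes.

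The markers of resident Kupffer cells did not move as one. Of 18 measured, 16 had a positive difference and 8 were higher by the rule, with a median difference of 0.88. Marco, a scavenger receptor, was at 8.80, 8.77 and 7.67 in mulberry 1, mulberry 5 and control 2, against 4.31, 4.78 and 6.33 in the low-score livers, a mean difference of 3.33. Spic, a transcription factor of iron-recycling macrophages, differed by 2.24, and Timd4, a receptor for phosphatidylserine on long-lived Kupffer cells, by 1.68. Clec4f, a lectin of mouse Kupffer cells, was at 5.06, 5.33 and 5.18 in the high-score livers, against 4.62, 5.03 and 5.30 in the low-score livers, and the sides overlapped. Vsig4, the complement receptor of Kupffer cells, was at 3.20, 3.07 and 3.07 in the high-score livers, against 1.89, 2.27 and 3.04 in the low-score livers, a difference of 0.68 that fell short of the step of 1. Among genes of lipid-laden and recruited macrophages, 17 of 17 tested were positive and 7 higher by the rule, with a median of 1.36. Itgax, the CD11c integrin chain, differed by 3.26, Gpnmb by 2.98, Capg by 2.49, Lgals3 by 2.20 and Spp1, osteopontin, by 1.53. One of the 2 probes of Gpnmb ran in the direction given. Trem2, a lipid-sensing receptor of such macrophages, was at 3.01, 3.20 and 2.08 in the high-score livers, and its highest low-score liver, at 2.15, lay above control 2. Mmp12, the macrophage elastase, differed by 0.56 with overlap. Of 9 lysosomal proteases none was higher by the rule and 2 lay higher without overlap, among them Ctsd (0.70).

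Each subunit of the phagocyte NADPH oxidase, the enzyme that makes superoxide in neutrophils and macrophages, was higher. All 6 genes tested were higher by the rule, with differences from 2.17 to 2.75 and a median of 2.46. Cybb, the catalytic subunit, was at 2.45, 2.48 and 0.48 in mulberry 1, mulberry 5 and control 2, against -1.58, -1.12 and -0.04 in the low-score livers, 6.75-fold in the mean. Its partner in the membrane, Cyba, differed by 2.54. The cytosolic subunits Ncf1 and Ncf4 differed by 2.31 and 2.62, and the GTPase Rac2 by 2.38. For Ncf1 control 2 lay at -2.15 and the highest low-score liver at -2.55, so these 2 livers were close.

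Genes of antigen presentation on MHC class II had the largest median of any list. All 8 tested members were higher by the rule, with a median difference of 3.47. H2-Aa, an alpha chain of class II, was at 5.35, 5.86 and 3.57 in mulberry 1, mulberry 5 and control 2, against 0.36, 0.76 and 2.80 in the low-score livers, 14.8-fold in the mean. Cd74, the invariant chain, was at 7.20, 7.41 and 5.16 in the high-score livers, against 2.13, 2.5 and 4.47 in the low-score livers. Ciita, the master activator of class II genes, was at 0.07, 0.77 and -0.72 in the high-score livers, against -4.14, -3.89 and -2.48 in the low-score livers, so that control 2 lay closer to the mulberry livers in Ciita than in H2-Aa. H2-Ab1 differed by 3.65, the peptide-exchange factors H2-DMa and H2-DMb1 by 3.31 and 3.0, and their modulators H2-Oa and H2-Ob by 3.0 and 1.49. H2-Ob was dim, with 3 of 7 low-score arrays well above background, and its difference was -0.20 with normexp background correction in place of the scanner's own. Control 4 was the highest low-score liver in H2-Aa, and its list mean lay 1.26 above the mean of the low-score livers.

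Apart from Itgam, all 10 leukocyte integrins and adhesion molecules tested were higher by the rule, with a median of 2.14, and of 17 genes of the haematopoietic cytoskeleton and its signalling 14 were, with a median of 2.14. Itgb2, the beta chain shared by the leukocyte integrins, was at 3.28, 3.19 and 1.51 in mulberry 1, mulberry 5 and control 2, against -0.80, -0.49 and 0.62 in the low-score livers. Among pattern recognition and inflammasome genes, 11 of 18 were higher by the rule, with a median of 2.08. They included Tlr1 (2.94), Nod2 (2.63), Cd14 (2.55) and Il1b (2.40). Of 10 Fc and complement receptors other than Itgam, 4 were higher by the rule, with a median of 1.03.

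More than 1 in 2 of the chemokines and of their receptors were higher in the high-score livers. Of 20 chemokines tested, 13 were higher by the rule, with a median difference of 1.88, and of 9 chemokine receptors 5 were, with a median of 1.87. Ccl5, which draws T cells and monocytes, was at 6.75, 7.85 and 4.03 in mulberry 1, mulberry 5 and control 2, against 0.90, 1.14 and 2.97 in the low-score livers, 27.3-fold in the mean. Ccl2, the ligand of CCR2, was at 3.61, 2.5 and 1.81 in the high-score livers, against -2.08, -0.54 and 1.77 in the low-score livers, so the sides were barely apart. Cxcl9, a chemokine induced by interferon gamma, was likewise at 6.25, 5.72 and 4.47 in the high-score livers, with its highest low-score liver at 4.40. The differences were 3.30 for Cxcl13, which guides B cells, and 2.27 for Cxcl10. Of the receptors, Cxcr6 differed by 2.54 and Cxcr3, the receptor of CXCL9 and CXCL10, by 2.15. Interferon-stimulated genes had a smaller median, 0.88, with 18 of 18 tested positive and 7 higher by the rule. The guanylate-binding proteins Gbp2 and Gbp3 differed by 3.63 and 2.55, and Ifit2 and Oasl2 by 1.44 each. In the mean of this list control 2 (1.30) lay as high as mulberry 5 (1.27) and mulberry 1 (1.09), unlike in the macrophage list, where control 2 was at 1.28 against 2.98 and 2.66.

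Many markers of T and NK cells and neutrophils were higher in the high-score livers, and fewer of B cells and dendritic cells. Of 20 T and NK cell markers well above background on at least 1 low-score array, 15 were higher by the rule, with a median of 2.22, near the 2.45 of the macrophage list. Cd8a was at -0.36, -1.26 and -2.51 in mulberry 1, mulberry 5 and control 2, against -6.42, -5.62 and -3.79 in the low-score livers, with 2 of the 7 low-score arrays well above background. Nkg7 and Gzma, of cytotoxic cells, differed by 2.80 and 2.91, and Cd247, the zeta chain of the T cell receptor complex, by 3.23, with 2 of its 3 probes in that direction. Cd3e, a defining chain of the T cell receptor complex, did not follow: its single probe was at -2.24, -1.48 and -1.79 in the high-score livers, against -2.30, -1.82 and -1.30 in the low-score livers. Of 9 neutrophil markers 2, Mmp8 and Mmp9, passed the filter through the high-score livers alone and had to lie higher. Of the other 7, 5 were higher by the rule, with a median of 1.62, among them Lcn2 (3.62), S100a8 (2.35), Csf3r (1.66) and S100a9 (1.62). Mmp8 and Mmp9, the collagenase and gelatinase of neutrophil granules, were not well above background in any low-score liver and were at least 2.92-fold and 3.56-fold higher. With normexp correction the differences were -0.12 for Mmp8 and -0.17 for Mmp9, so their direction rests on the background correction. Of 10 B and plasma cell markers 3 were higher by the rule (against 5.86% of all genes). The 3 were Cd22 (1.86), Blnk (1.52) and Bank1 (1.15, but below 0 with normexp correction), whereas Cd79a, a part of the B cell receptor, differed by -0.03. Of 8 dendritic cell markers 4 were higher by the rule, Batf3 (2.08) among them, and Xcr1 differed by -0.43, with 1 of its 2 probes in that direction. Among red cell and platelet markers, the platelet genes Ppbp (1.78), Gp9 (1.36) and Pf4 (1.33) were higher by the rule, and the globins Hba-a1 (0.15) and Hbb-bt (0.07) overlapped. The part of each cell type in the contrast was not tested.

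**Figure D2:**
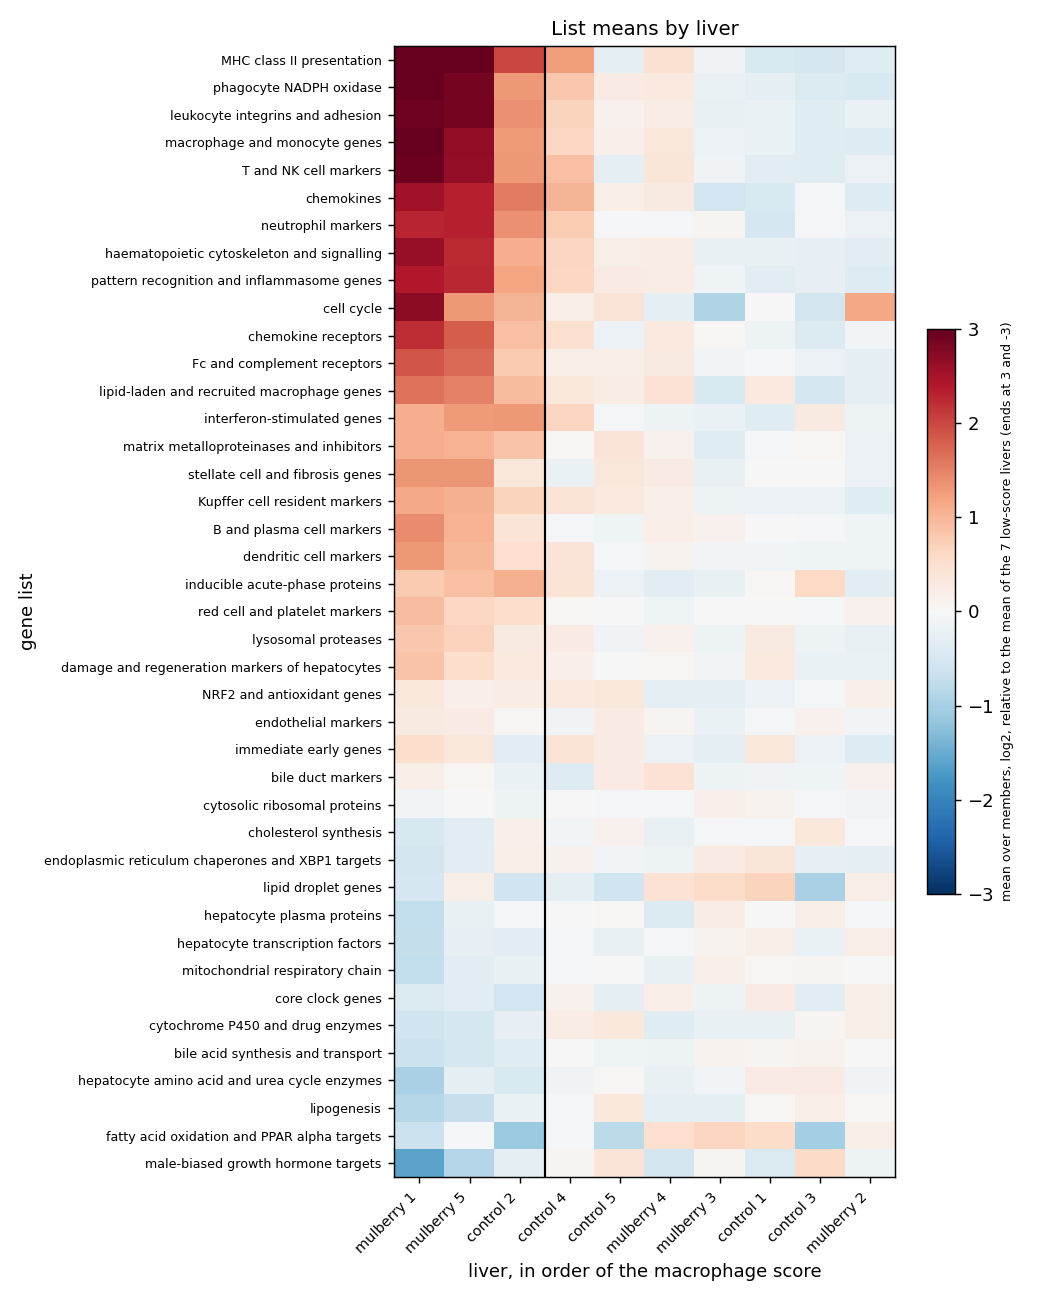
Mean level of each of 41 gene lists with at least 5 tested members (rows) in each liver (columns, in order of the macrophage score; the black line separates the high-score livers on the left from the low-score livers on the right), in log2 relative to the mean of the 7 low-score livers, with colours ending at 3 and -3. Most leukocyte lists at the top are strongest in mulberry 1 and 5, weaker in control 2 and weaker again in control 4, and the hepatocyte lists at the bottom run the other way in mulberry 1.

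Genes of stellate cells were higher mainly in the 2 mulberry livers, and genes of dividing cells also in a low-score liver. Of 20 stellate cell and fibrosis genes 18 were positive and 4 higher by the rule (against 5.86% of all genes), with a median of 0.88. Col1a1, the main chain of type I collagen, was at 1.62, 1.70 and -0.91 in mulberry 1, mulberry 5 and control 2, against -2.10, -1.53 and -0.82 in the low-score livers, so control 2 lay within the low-score range. Col3a1 was at 3.66, 2.99 and 1.40 in the high-score livers, with the highest low-score liver at 1.34, and Vim, vimentin, which leukocytes also express, differed by 2.45. Acta2, the actin of activated stellate cells, was at 2.73, 2.63 and 2.44 in the high-score livers, against 1.2, 1.70 and 2.72 in the low-score livers, and overlapped. The mean of this list was 1.32 in mulberry 1, 1.32 in mulberry 5 and 0.34 in control 2, against -0.22 to 0.33 in the low-score livers. Of 12 metalloproteinases and their inhibitors, 2 were higher by the rule, the Mmp8 and Mmp9 described above, which no low-score array showed well above background. None of the other 10 was, and Timp1, an inhibitor, differed by 0.83 without overlap. Mki67, a protein of cycling cells, was at 1.76, 0.93 and -0.12 in the high-score livers, against -2.56, -1.94 and -0.40 in the low-score livers. Of 20 cell cycle genes 19 were positive and 5 were higher by the rule (against 5.86% of all genes). Their list mean was 2.69 in mulberry 1, 1.30 in mulberry 5 and 1.02 in control 2, and mulberry 2, the liver with the lowest macrophage score, was at 1.15, between the last 2.

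Endothelial and bile duct markers stayed near the all-gene median or slightly above it. Of 18 endothelial markers none was higher by the rule, with a median difference of 0.08. Pecam1 was at -1.16, -1.91 and -2.22 in mulberry 1, mulberry 5 and control 2, against -2.79, -2.24 and -1.78 in the low-score livers, and Lyve1, of sinusoidal endothelium, differed by 0.73 without overlap. Of 9 bile duct markers Krt19, a keratin of the duct epithelium, differed by 0.00, Spp1 was higher by the rule, and Krt23 lower. Krt23 was at 1.96, 3.04 and 1.40 in the high-score livers, against 3.10, 3.91 and 4.94 in the low-score livers, 3.48-fold lower in the mean, and control 2 was its lowest liver. Pancreatic and fat cell markers, with 4 and 1 tested, had medians of -0.09 and -0.08.

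**Figure D3:**
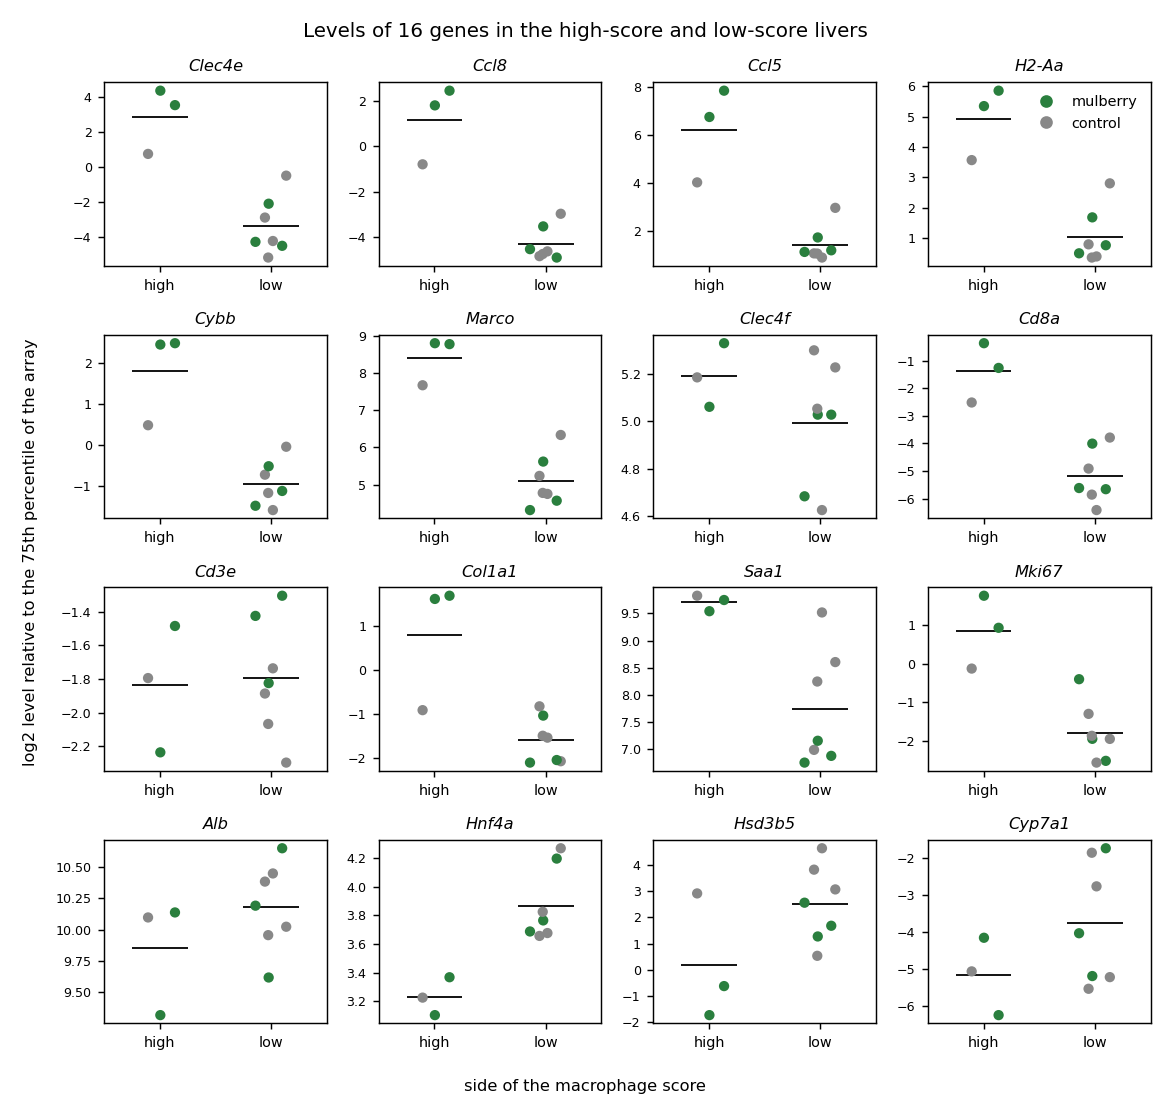
Levels of 16 genes (log2 relative to the 75th percentile of the array, each panel with its own axis) in the 3 high-score livers on the left and the 7 low-score livers on the right of each panel; green points are mulberry livers, grey points controls, and bars are the means of a side. Clec4e, Ccl8, Ccl5, H2-Aa, Cybb, Marco and Cd8a separate the sides, whereas Clec4f, Cd3e and Alb overlap, and Hnf4a lies lower in the high-score livers.

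Genes of hepatocytes lay a little lower in the high-score livers, most of all in mulberry 1. All 14 hepatocyte transcription factors tested were negative, with a median of -0.43, and none was lower by the rule. Hnf4a, a master regulator of hepatocytes, was at 3.10, 3.37 and 3.23 in mulberry 1, mulberry 5 and control 2, against 3.66, 3.77 and 4.27 in the low-score livers, a difference of -0.63 without overlap. All 14 enzymes of amino acid breakdown and the urea cycle were negative too, with a median of -0.50. Tat, the tyrosine aminotransferase, was at 6.74, 6.62 and 6.75 in the high-score livers, against 6.98, 7.57 and 8.23 in the low-score livers. Plasma proteins had a median of -0.36 with 1 of 16 positive. Alb, the albumin gene, was at 9.32 in mulberry 1, against 9.62, 10.19 and 10.65 in the low-score livers, and mulberry 5 and control 2 lay within the range of the low-score livers. Apoa1, the main protein of HDL, differed by -0.71 without overlap. Of 24 cytochrome P450 and drug enzymes 1 was positive, with a median of -0.43, and Cyp2e1 differed by -0.76. These medians stand beside the all-gene median of -0.17, and cytosolic ribosomal proteins, which every cell makes, had a median of -0.10. The list mean of the amino acid enzymes was -0.98 in mulberry 1 but -0.27 in mulberry 5, near the lowest low-score liver (-0.23). For plasma proteins mulberry 1 was at -0.73. Mulberry 5 (-0.23) and control 2 (-0.06) lay within the low-score range of -0.40 to 0.23. For drug enzymes control 2 (-0.25) lay within the low-score range of -0.37 to 0.33.

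The male-biased targets of growth hormone had the lowest median of the hepatocyte lists, -0.83. Of 13 tested 13 were negative and 2 lower by the rule (against 0.451% of all genes). The 2 were Cyp4a12a and Cyp7b1. Cyp4a12a, a male-specific omega-hydroxylase, was at 4.11, 5.09 and 5.52 in mulberry 1, mulberry 5 and control 2, against 5.61, 5.98 and 6.67 in the low-score livers. Cyp7b1, an oxysterol 7-alpha-hydroxylase, was at 3.64, 4.04 and 4.24 in the high-score livers, against 4.25, 5.22 and 5.94 in the low-score livers. Hsd3b5, a steroid dehydrogenase of male mouse liver, was at -1.73 and -0.62 in mulberry 1 and 5, below every other liver, and at 2.91 in control 2, near the low-score median of 2.56. The list mean was -1.61 in mulberry 1, -0.89 in mulberry 5 and -0.27 in control 2, against -0.56 to 0.58 in the low-score livers. Control 2 therefore lay within the low-score range in this list.

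Bile acid and sterol genes were mixed. Of 19 genes of bile acid synthesis and transport 18 were negative, with a median of -0.47. Slc10a1, the bile salt importer, was at 2.71, 3.73 and 4.08 in mulberry 1, mulberry 5 and control 2, against 4.11, 4.25 and 4.93 in the low-score livers. Abcc4, a basolateral exporter, was the one positive member and was higher by the rule (1.1). Cyp7a1, which sets the rate of bile acid production, was dim, with 2 high-score and 5 low-score arrays well above background. It was at -4.15, -6.23 and -5.05 in the high-score livers, against -5.52, -4.03 and -1.74 in the low-score livers, with overlap. Cyp8b1, which makes cholic acid, differed by -1.16 with overlap. Cholesterol synthesis had a median of -0.31, with 2 of 19 positive. Sqle, squalene epoxidase, was higher by the rule (1.08, but -0.11 with normexp correction) and Mvd lay higher without overlap (0.98), whereas Tm7sf2 differed by -1.17 with overlap. All 16 lipogenic genes tested were negative, with a median of -0.56. Mlxipl, which encodes the carbohydrate sensor ChREBP, was at 4.37, 4.43 and 4.74 in the high-score livers, against 5.01, 5.34 and 6.30 in the low-score livers, while Fasn (-0.37), Scd1 (-0.81) and Thrsp (-1.03) overlapped. Between mulberry and control over all livers, Fasn, Scd1 and Thrsp differed by -0.73, -0.84 and -1.54 (limma, adjusted p = 0.882 each). Of the 3 high-score livers 2 are mulberry livers, so the diets were not balanced over the sides.

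Fatty acid oxidation and lipid droplet genes were lowest in livers of both sides that shared an array slide. The 23 genes of fatty acid oxidation and PPAR alpha targets had a median difference of -0.61. Their list mean was -0.65 in mulberry 1, -0.03 in mulberry 5 and -1.10 in control 2, against -1.03 to 0.65 in the low-score livers. The 3 livers on slide 1, control 2, 3 and 5, had the 3 lowest values, -1.10, -1.03 and -0.81, and 2 of them are low-score livers. Lipid droplet genes ran the same way, with -0.59, -0.98 and -0.60 in these 3 livers, against -0.51 to 0.67 in the other 7. Slide 1 held controls only, and the 2 controls on slide 3, control 1 and 4, were at 0.54 and -0.04 for fatty acid oxidation and at 0.67 and -0.28 for lipid droplet genes. Cyp4a10, a PPAR alpha target, was at 6.34, 8.19 and 6.05 in the high-score livers, against 7.30, 8.43 and 9.26 in the low-score livers. Cpt1a, the entry step of mitochondrial oxidation, differed by -0.32 and Plin4 by -0.69, both with overlap. Ucp2, which leukocytes also express, was the one positive member of the oxidation list and was higher by the rule (1.91).

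**Figure D4:**
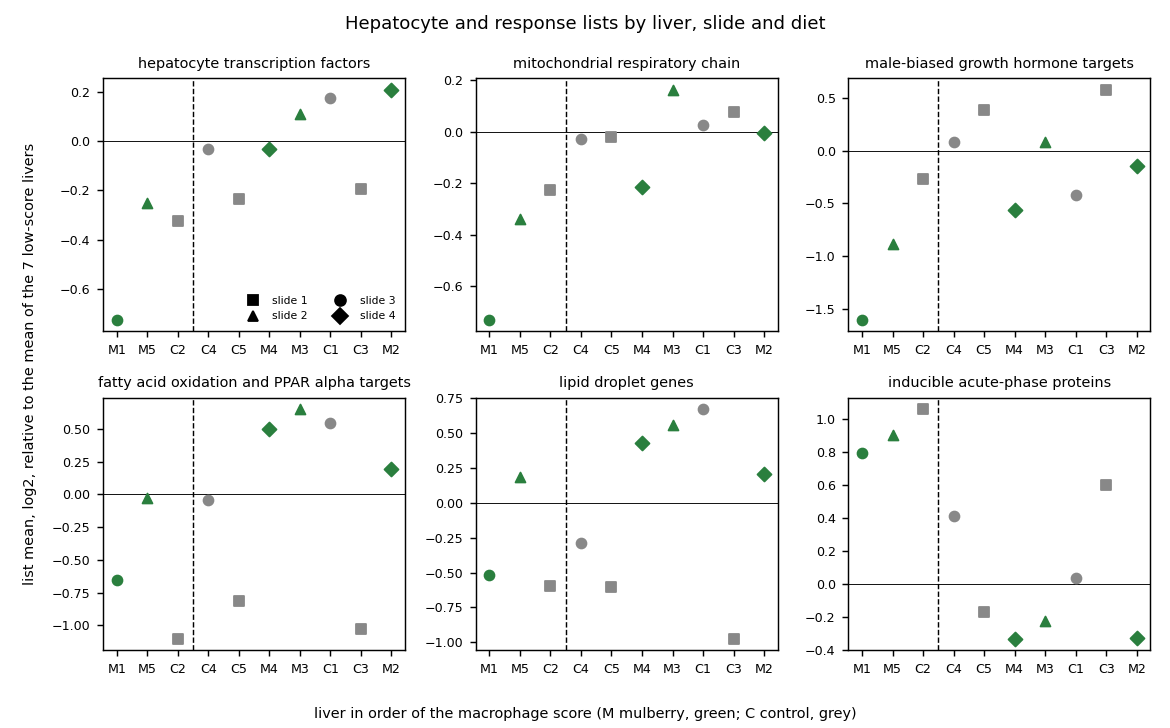
Mean of 6 gene lists in each liver, in log2 relative to the mean of the 7 low-score livers; livers are in order of the macrophage score with the high-score livers left of the dashed line, green is mulberry, grey is control, and the symbol gives the slide. Fatty acid oxidation is lowest in the 3 controls of slide 1 (-1.10, -0.81 and -1.03), on both sides of the line. The respiratory chain and hepatocyte transcription factors are lowest in mulberry 1 and lower in all 3 high-score livers, but narrowly. For the respiratory chain control 2 is at -0.226 and the lowest low-score liver at -0.215. For the transcription factors mulberry 5 is at -0.252 and the lowest low-score liver at -0.234.

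Acute-phase proteins, which hepatocytes secrete under cytokines, had list means of like size in all 3 high-score livers. Of 19 inducible members 17 were positive and 5 higher by the rule, with a median of 0.77. Saa3 was at 7.69, 7.81 and 7.31 in mulberry 1, mulberry 5 and control 2, against 4.15, 4.98 and 6.70 in the low-score livers. Saa1, the serum amyloid A of liver, was at 9.54, 9.75 and 9.82 in the high-score livers, against 6.75, 7.15 and 9.52 in the low-score livers, and control 3 was that highest low-score liver. Orm3 and Orm2, the orosomucoids, differed by 2.28 and 1.16. In the list mean control 2 (1.06) lay above mulberry 5 (0.90) and mulberry 1 (0.80), and control 3, with a score of -0.87, was next at 0.60. Probes of Saa1 and Saa2 may cross-hybridise.

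The respiratory chain lay lower by a small amount that was even across its genes but not across the livers. Its list mean was -0.731 in mulberry 1, -0.340 in mulberry 5 and -0.226 in control 2. The low-score livers ran from -0.215 to 0.163, so control 2 barely lay below them. All 20 subunits tested were negative, with differences from -0.61 to -0.31, and 12 of 20 were lower without overlap, where 8.98% of all genes were. The all-gene share depends strongly on scaling and background correction, as given at the end. Sdha, of complex II, was at 3.35, 3.57 and 3.95 in mulberry 1, mulberry 5 and control 2, against 4.10, 4.27 and 4.35 in the low-score livers. Core clock genes had a median of -0.41 with 12 of 12 negative, and Nr1d2 was at -0.14, -0.00 and -0.32 in the high-score livers, against 0.28, 0.76 and 0.92 in the low-score livers. Immediate early genes and endoplasmic reticulum chaperones had medians of -0.23 and -0.36, but their mean differences had opposite signs in the 2 diets. Immediate early genes differed by 0.705 within mulberry and by -0.55 within control, and the chaperones by -0.39 within mulberry and by 0.16 within control. Atf3, a stress-induced factor in both lists, was higher by the rule (1.5), and Zfp36, which destabilises cytokine mRNAs, was lower without overlap (-0.68). NRF2 and antioxidant genes had a median of 0.21 with no call, and Hmox1, heme oxygenase 1, differed by 1.56 with overlap. Among damage and regeneration markers of hepatocytes, 4 of 14 were higher and 1 lower by the rule, against 5.86% and 0.451% of all genes. Of these markers, S100a6 (2.45), S100a11 (1.78) and Lcn2 are also made by leukocytes, and Igfbp1 differed by -1.17 with overlap.

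The 87 lower genes had a median difference of -1.40, and 46 of them matched a RefSeq gene, against 904 of the 1130 higher genes. Among the 20 lowest, 7 names matched RefSeq genes other than Krt23. Susd4, a complement regulator, was at -5.04, -4.76 and -4.53 in mulberry 1, mulberry 5 and control 2, against -4.42, -2.08 and -1.80 in the low-score livers. The others were Odf3l1 (-2.05), Olfr125 (-2.05), Lcn12 (-1.93), Ces4a (-1.77), Bmf (-1.77), for which 1 of 3 probes ran this way, and Olfr1384. Mulberry 2 and 4, which shared slide 4, were the 2 highest livers for Odf3l1, Lcn12, Bmf and Olfr1384. This did not hold for Susd4, Olfr125 or Ces4a. For Lcn12 they were at 0.13 and -0.23, and the other low-score livers at -2.07 to -1.32. Control 2 lay close to control 4 for Lcn12 (-2.27 and -2.07) and Odf3l1 (-4.07 and -3.97). The part of the slide was not tested. Olfr1384 was well above background in none of the high-score livers and was at least 2.51-fold lower in them. Of the high-score arrays, 1 was well above background for Odf3l1 and Ces4a and 2 for Susd4.

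Most genes that were higher in the high-score livers of the mulberry group were also higher in control 2 than in the other controls, by less. Mulberry 1 and 5 were higher than mulberry 2, 3 and 4, without overlap and by at least 1, in 1776 genes (9.20%), and lower in 1101 (5.71%). Control 2 alone was above all 4 other controls in 3613 genes (18.7%) and below them in 4685 (24.3%). Of the 1776 genes, control 2 was above all other controls in 1349 (76.0%) and below them in 21. Of the 1101 genes that were lower in the 2 mulberry livers, control 2 was below all other controls in 308 (28.0%) and above them in 162. The 1776 genes had a median difference of 1.90 within the mulberry group, and in control 2 a median of 0.84 against the other controls. For the 1101 lower genes the medians were -1.26 and -0.08, against -0.25 and -0.03 over all genes. The 2 diets share no liver, but the livers were picked by the same 7 transcripts in both, so this overlap was partly set by the choice.

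**Figure D5:**
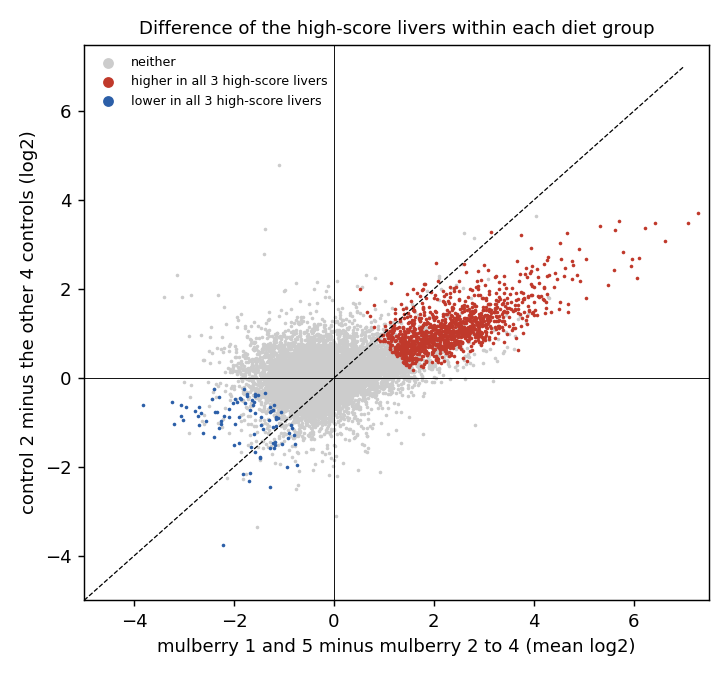
Each point is a gene; the horizontal axis gives mulberry 1 and 5 minus mulberry 2 to 4 and the vertical axis control 2 minus the other 4 controls, both in log2, with the dashed line where they are equal. Genes higher in all 3 high-score livers (red, 1130) lie mostly below the line, with a smaller difference in control 2, and genes lower in all 3 (blue, 87) are few.

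The macrophage and MHC class II lists were higher within each slide and scan day that held both sides, but these signs were fixed beforehand. The macrophage list mean was at least 1.28 in the high-score livers and at most 0.63 in the low-score livers. For MHC class II the values were 1.99 and 1.26. The hepatocyte transcription factor and respiratory chain means also lay apart, on the lower side. Only the sizes of these differences were therefore open. Slide 1 held control 2 beside control 3 and 5, slide 2 mulberry 5 beside mulberry 3, and slide 3 mulberry 1 beside control 1 and 4. Slide 4 held mulberry 2 and 4, with no high-score liver. The mean difference of the macrophage list was 1.38, 2.83 and 2.77 on slides 1, 2 and 3, and that of the MHC class II list 2.40, 4.06 and 3.29. On scan day 1 the macrophage list differed by 2.09 and on day 2 by 2.88. The hepatocyte transcription factors differed by -0.11, -0.36 and -0.79 on the 3 slides and the respiratory chain by -0.25, -0.50 and -0.73. The stellate cell list differed by 0.17 on slide 1, against 1.54 and 1.42 on slides 2 and 3. Fatty acid oxidation genes differed by -0.18 on slide 1 and by -0.68 and -0.90 on slides 2 and 3.

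Whether the macrophage score itself differed by diet was tested, since the rule did not use the diet. The mean score was 0.28 ± 1.30 in mulberry livers and -0.28 ± 0.57 in control livers (SD, n = 5 each), a difference of 0.57 that was smaller than the spread among mulberry livers (exact permutation test, two-sided, p = 0.405 over 252 assignments). Of the 5 mulberry livers 2 were high-score livers, against 1 of the 5 control livers (Fisher's exact test, two-sided, p = 1.0), a test that cannot go below p = 0.167 with 3 high-score livers. In single genes limma, with Benjamini-Hochberg adjustment, called 0 of 19295 genes (0%) between mulberry and control over all 10 livers, where 1046 had an unadjusted p under 0.05. Among the 7 low-score livers alone it also called 0 genes (0%), with 1744 at an unadjusted p under 0.05 and a smallest adjusted p of 0.0976. With the side as a term in the fit over all livers it called 0 (0%), with 1373 at an unadjusted p under 0.05. Rnf208, a ubiquitin ligase, had among the smallest p in each fit. It was at -4.04, -3.26, -3.53, -3.47 and -3.29 in mulberry 1 to 5, against -4.70, -4.50, -4.53, -4.44 and -4.61 in control 1 to 5, and did not pass (limma, adjusted p = 0.531 over all livers, 0.225 in low-score livers and 0.386 with the side as a term). Clec4e differed by 1.82 between mulberry and control over all livers and by -0.43 in the low-score livers (limma, adjusted p = 0.882 and 0.991). Each mouse is 1 array, and the p-values over all livers without the side measure the spread between mice. Diet was nearly tied to slide, so slide differences can hardly be told apart from diet in these tests and fits. Slide 1 held controls only, slides 2 and 4 mulberry livers only, and slide 3 mulberry 1 beside control 1 and 4. In the low-score fit and the fit with the side as a term, the side came from the same arrays. Those p-values are conditional on that choice.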

How the data were processed

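Liver RNA of 5 mulberry and 5 control mice was hybridised to 10 Agilent 1-colour arrays (Cy3), 1 per mouse. Per the file headers, the deposited scanner files hold signal intensities from Agilent Feature Extraction 10.1.1.1, which had already corrected the background in the processed intensity used here. The deposited table of the whole series holds linear intensities that the authors normalized, in a way that no source used here states, and log2 was taken of them here. It served for the macrophage score and as an alternative. The sides were set by that score, and the members, gene lists and tests were chosen with earlier results of these data known.

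A level is the log2 processed intensity less its array's 75th percentile. A gene is its probe with the highest mean. Of 41128 probes, 25070 (61%) matched a RefSeq gene of GRCm38.p6 by accession, and the others kept the name of the array design. A gene was tested if at least 3 of 10 arrays were well above background, which left 19295 of 32636 names. For a gene not well above background on any array of a side, the bound sets the mean of the brighter side against, on each array of the other, the dimmest signal well above background or, where higher, the probe's own. Named genes are the 25 highest and 20 lowest of the called genes by mean difference (those matched to RefSeq), up to 6 members of each list by difference, all members of short lists, a set fixed whatever their values, and the smallest p of each diet fit. Diet was tested with limma 3.58.1 (R 4.3.3), Benjamini-Hochberg adjusted at 0.05, and checked on simulated data. Arrays were scanned on 2 days and 4 slides. The number of arrays limits the precision. The alternatives were 3 other scalings, normexp correction, the authors' table, 2 other filters, the mean over probes, other cuts of the score, scan day, slide, diet, replicate number, array weights and each liver left out. The scanner files give a median but no mean spot signal, so normexp used the median. Cd68 had no named probe in the scanner files. Some genes of the lists are not reported here.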

Additional observations from a re-analysis of the deposited data

Results flagged for a closer look

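Within each diet, a value was looked at again where the highest or lowest of the 5 livers stood apart from the nearest other by more than 0.71 of the whole range. This held for 16 of 418 sets of 5 livers, a smaller share than the about 1 in 20 that chance gives. In 8 of the 16, control 2 was the liver that stood apart. It had been picked as the control with the highest macrophage score. Many of the genes looked at were named for their difference between the sides. Its place here was thus partly set by the choice. It was highest among controls in the means of the B and plasma cell markers (gap 0.77 of the range, at 0.39 against -0.13 to -0.01 in the other controls) and of the red cell and platelet markers (0.811, at 0.53 against -0.04 to 0.07). It was also highest for Dpep2 (0.713), Top2a (0.73) and Orm2 (0.793), and lowest for Per1 (0.768), Zfp36 (0.786) and Uqcrc1 (0.74). Per1, a core clock gene, was at -0.01 in control 2, against 1.35 to 1.76 in the other controls.

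Mulberry 1 stood apart in 5. It was lowest in the mean of the amino acid and urea cycle enzymes (0.791, at -0.98 against -0.27 to -0.08 in the other mulberry livers), in Ttr (0.767), Asl (0.738) and Plin4 (0.766), and highest in Nqo1 (0.716). The other 3 lay in low-score livers. Cyp8b1 was highest in control 1 (0.748), Slc10a1 in control 3 (0.794) and Thrsp in mulberry 2 (0.886).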

How the results depend on the processing

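Of 1130 genes higher and 87 lower, the counts were 379 and 12 with normexp, 1709 and 292 with the 2 highest scores as the high side, and 633 and 56 with the 4 highest. Within scan day 1 they were 1278 and 149, within day 2 1950 and 1359, within slides 1, 2 and 3 984 and 283, 1938 and 725, and 2101 and 910, within mulberry 1776 and 1101, and within control 863 and 240, where fewer livers make overlap rarer. The share of calls that were higher was 92.9%, against 58.9% within day 2, 77.7%, 72.8% and 69.8% within the 3 slides, 61.7% within mulberry and 78.2% within control. With the third high-score liver taken by its label, an alternative chosen after seeing the data, 24 were higher and 13 lower, none of them among the 1130 and 87. Leaving out 1 liver gave 1027 to 1709 higher and 80 to 292 lower, with 1709 and 292 without control 2, 194 lower without mulberry 5 and 135 lower without control 4. Under the other settings both counts stayed within 1.5 times. Without the step of 1, the 1732 genes lower without overlap became 1301 with quantile normalization and 4251 with normexp. With the 75th percentile taken over probes detected on all arrays they became 938. The 1540 higher without overlap became 1617, 643 and 1843 in the same order.

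With normexp the differences turned to -0.204 for H2-Ob, -0.116 for Mmp8, -0.168 for Mmp9, -0.003 for Bank1, -0.139 for Top2a and -0.106 for Sqle. The cause was not tested. The diet fits (limma) called 0 genes in all other settings, slide as a block left aside. Over all livers they called 1 (Rnf208) with array weights and 1 (Rnf208) without mulberry 1. In low-score livers they called 2 with scan day as a block, Defb22 and an unnamed transcript, and 1, the same transcript, with array weights. With the side as a term they called 1 (Fbp2) without control 1 and 2 (Defb22 and Rnf208) without mulberry 1. Defb22 and Fbp2 are named after their values were seen. Leaving out 1 liver gave 0 to 1, 0 to 0 and 0 to 2 genes in the 3 fits. With the replicate number as a block the fits called 0, 0 and 0 genes. Livers of the same number in the scanner files correlated with r from -0.428 to 0.379, so these numbers were not taken to pair the mice. Pairing by the numbers of the authors' table was not tested, here or in the block. Slide as a block could not be fitted for the low-score livers. In the other fits it took the diet difference from slide 3 alone. There mulberry 1 was the only mulberry liver, so nothing is read from it. The difference in score between diets ranged from 0.206 to 0.869 when 1 liver was left out.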
